A study of Mus musculus with 36 samples.

Results

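Cytosolic and mitochondrial heat shock chaperones were followed in leukaemia cells of the marrow (BM) and of the central nervous system (CNS) in a mouse model of infant mixed lineage leukaemia. The 10 genes were Hspa1a, Hspa1b, Hspa8, Hsp90aa1, Hsp90ab1, Dnajb1, Dnaja1, Hsph1, Hspd1 and Hspe1. They were chosen by name, with earlier results of these data known. Matched by symbol to the identifiers of the deposited tables, all 10 were found among 55414 identifiers. The study sorted blood stem and progenitor cells and sequenced total RNA from each sort, in 36 libraries that form 9 groups of 4. Leukaemia cells came from mice with terminal leukaemia that carried Kmt2a-AFF1+, the gene fusion named by the model, and overexpressed a microRNA, called miR-130b in the sample labels and miR-130a in the series' design text. Control cells came from BM of non-leukaemic mice that carried the same fusion and overexpressed miR-scramble, so both arms share Kmt2a-AFF1+. The 3 sort gates, all Lin- and c-Kit+, were HSC/MPP (Sca-1+ Flt3-), LMPP (Sca-1+ Flt3+) and LK/CLP (Sca-1-), written HSC, LMPP and LK from here on. By their identifiers, 12 leukaemia mice each provided a BM and a CNS library of the same sort, and each of the 4 control mice gave 1 library of every cell type. The labels state no ages, no promoter driving the microRNA and no number of cells per sort. Disease, microRNA and deposited table go together, so they cannot be told apart between leukaemia and control.

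Heat shock proteins keep other proteins folded. HSP70 proteins bind unfolded stretches with the help of J proteins, which deliver clients and start ATP hydrolysis, and of HSP110, which exchanges the nucleotide, while HSP90 matures kinases and receptors further down the line. Hspa1a and Hspa1b encode the stress-inducible HSP70 and have no introns, Hspa8 encodes the constitutive HSP70, and heat shock factor Hsf1 drives the inducible genes by binding inverted repeats of GAA in their promoters. Such genes are also known to respond to handling and dissociation of tissue.

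Promoters were read from RefSeq (GRCm38.p6, another build than the GRCm39 of the deposited tables), which held an entry for 7 of the 10 genes. The 250 bases before the start of Hspa1a (chr17:34972157-34972406, minus strand) and of Hspa1b (chr17:34959239-34959488, minus strand) are shown because the results turn on this pair. Capitals mark an inverted pair of GAA units (GAANNTTC or TTCNNGAA, searched on both strands; each of the 2 motifs is its own reverse complement).

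Hspa1a: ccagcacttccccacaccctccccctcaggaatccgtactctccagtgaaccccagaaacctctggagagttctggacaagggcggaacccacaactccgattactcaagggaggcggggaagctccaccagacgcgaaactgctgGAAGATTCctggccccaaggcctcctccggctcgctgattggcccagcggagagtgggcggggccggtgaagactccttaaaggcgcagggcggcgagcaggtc
Hspa1b: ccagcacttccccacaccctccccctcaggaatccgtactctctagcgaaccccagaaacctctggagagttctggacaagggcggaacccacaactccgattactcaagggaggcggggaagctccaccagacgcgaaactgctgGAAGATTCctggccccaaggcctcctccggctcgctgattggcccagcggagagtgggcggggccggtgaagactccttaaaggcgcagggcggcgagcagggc

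These 2 upstream sequences were 98.8% identical and differed at 3 of 250 positions, C44T, T47C and T249G, counted from 1 at the 5′ end with the Hspa1a base first. Both hold the pair at -104 to -97 from the start. Shorter stretches of 30 bases around the motif are shown for Hsph1 (chr5:149636351-149636380, minus strand), Dnaja1 (chr4:40722333-40722362, plus strand) and Hspe1 (chr1:55088053-55088082, plus strand), an HSP110 gene, a J protein gene and a mitochondrial chaperonin gene for comparison.

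Hsph1: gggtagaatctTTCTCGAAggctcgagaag
Dnaja1: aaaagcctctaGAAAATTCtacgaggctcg
Hspe1: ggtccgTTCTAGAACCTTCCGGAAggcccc

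The Hspe1 stretch lies in the region between Hspe1 and Hspd1 that both genes share. It holds 3 overlapping pairs and with them 2 overlapping matches to a longer motif of 3 units. In that motif GAA and its inverse alternate with NN between them. A pair was present within 250 bases upstream in 6 of the 7 genes with an entry, against 14.5% of 27025 genes. The motif of 3 units was present in 2 of the 7, Hspd1 and Hspe1, against 0.514% of genes. A window of Hspd1 overlaps that of Hspe1 and holds the same matches, so these 2 genes count the same region. The near-identical windows of Hspa1a and Hspa1b likewise count as 2 of the 6 genes with a pair. The windows of Dnajb1 held no match to these letters. A match describes the letters in the window and is no measured binding site.

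The deposited values are whole-number counts, with totals of 1909638 to 30442297 per leukaemia library and 3550349 to 21575930 per control library. Levels below are CPM, counts per 1000000 of a library size scaled by trimmed mean of M values (TMM) over genes above background, and levels are compared between genes only per kb of exon. Every library also held a low uniform background of counts, read from sensory receptor genes that blood cells are not known to use, and a gene was called above background where its count passed 3 times the background for its length plus 10. By group, the median background share ran from 1.6 to 13.2% of counts in leukaemia and from 9.69 to 23.9% in controls. Replicates of a group are separate mice by their identifiers. CNS HSC 1 stood apart by 2165 CPM summed over 11 microglia markers, against 51.8 to 389 CPM in the other 11 CNS libraries, and BM LMPP 3 by its total of 1909638, the lowest. For the chaperones called over all mice, the paired test is also given without the mice of these libraries. Correlations, ranks and the tests of other gene lists are given with all mice. In these bulk sorts, a change in the share of a cell type and a change in RNA per cell cannot be told apart.

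Hspa1a and Hspa1b were low per kb and, among leukaemia BM libraries, the most variable of the 10 genes. In leukaemia BM, Hspa1b ranged from 1.19 to 16.8 CPM per kb with a median of 4.35, and Hspa1a from 0.68 to 9.95 with a median of 3.42. Hsp90ab1, the constitutive cytosolic HSP90, was the highest at a median of 647 CPM per kb, followed by Hspa8 at 347 and by Hsp90aa1, the other cytosolic HSP90, at 183. The mitochondrial chaperonin Hspd1 (HSP60) lay at a median of 48.6 CPM per kb and its lid Hspe1 (HSP10) at 23.5. The J protein Dnajb1 followed at 13.01, the J protein Dnaja1 at 8.64 and the HSP110 gene Hsph1 at 5.21. The ranges of Dnaja1 (3.61 to 14.5) and Dnajb1 (7.53 to 16.0) overlapped, as did those of Hsph1 (3.51 to 10.5) and both HSP70 genes. The highest BM library exceeded the lowest 14.7 times for Hspa1a and 14.1 times for Hspa1b, but 2.13 times for Dnajb1 and 4.03 times for Hspa8. In control BM the span was 3.77 times for Hspa1a and 3.18 times for Hspa1b. These genes were above background in 4 and 2 of 12 control libraries, so their spans there are of values near background. Hspd1 spanned 10.3 times across the control cell types, from 34.8 CPM in an LMPP library to 358 CPM in an LK library.

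**Figure D1:**
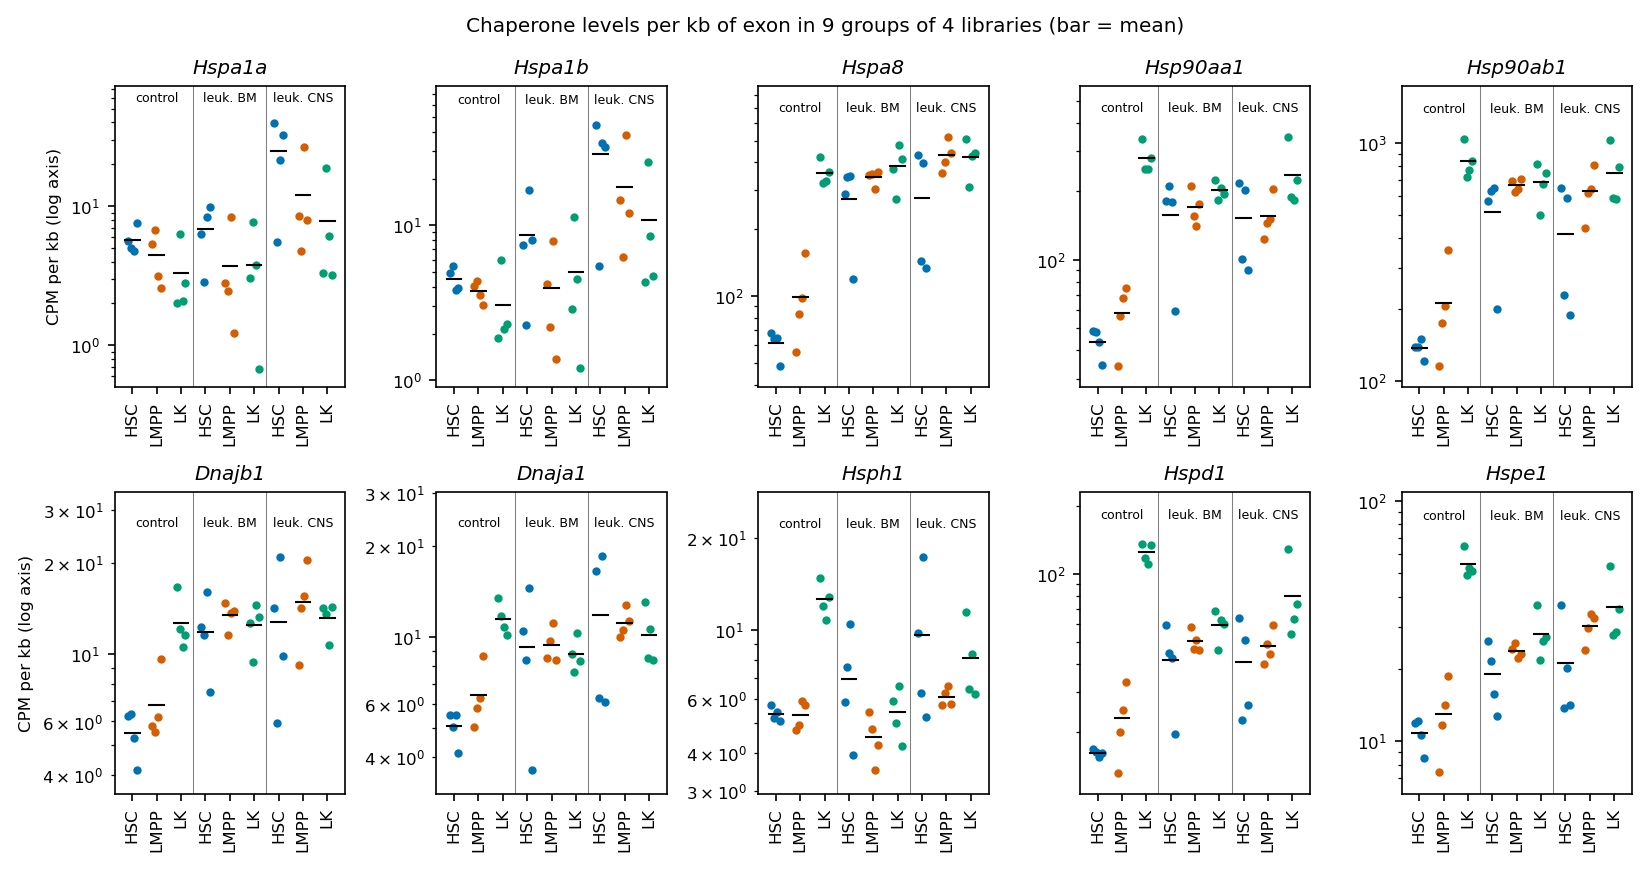
Levels in CPM per kb of exon (log axis) for each of the 10 chaperones in control BM, leukaemia BM and leukaemia CNS; points are libraries, 4 per group, coloured by cell type, and bars are means. Control HSC and LMPP sit below control LK for 8 genes but not for Hspa1a and Hspa1b, which are highest on average in CNS HSC (24.8 and 28.9 CPM per kb).

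The first comparison asked how chaperone RNA in CNS compares with BM from one and the same leukaemia mouse. The inducible pair rose in CNS in the paired tests; the unpaired edgeR test gave folds as large, with no call. Hspa1b went from a mean of 16.4 ± 13.2 CPM in BM to 53.6 ± 41.2 CPM in CNS, and Hspa1a from 14.2 ± 9.37 to 44.1 ± 37.4 CPM (SD, n = 12 each). Both were higher in CNS in 12 of 12 mice. Hsph1 rose by a smaller step, from 40.9 ± 14.0 to 57.8 ± 25.3 CPM, and was higher in 11 of 12 mice. The constitutive HSP70 and HSP90 genes and the mitochondrial pair did not pass the test.

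The level of Hspa1b is given for each mouse. In HSC mice 1 to 4, its BM level was 20.8, 6.38, 47.1 and 22.6 CPM, and its CNS level in the same order was 123, 15.2, 95.8 and 89.1 CPM. In LMPP mice 1 to 4 the BM level was 11.7, 6.22, 22.3 and 3.87 CPM, and the CNS level 40.9, 17.6, 107 and 33.65 CPM. In LK mice 1 to 4 the BM level was 8.10, 31.7, 12.6 and 3.34 CPM, and the CNS level 12.1, 71.5, 23.8 and 13.2 CPM. Groups of BM and CNS libraries overlapped within HSC, LMPP and LK, because CNS HSC 2, CNS LMPP 2 and the lowest CNS LK libraries lay below the highest BM library of their type. Each CNS library nevertheless lay above the BM library of its own mouse, by 1.498 to 8.69 times with a median of 3.16.

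Hspa1a was higher in CNS in the same 12 mice. Its BM level in HSC mice 1 to 4 was 18.8, 8.43, 25.0 and 29.5 CPM against 118, 16.5, 63.8 and 95.8 CPM in CNS. LMPP mice had 8.31, 7.30, 24.7 and 3.61 CPM in BM against 25.2, 14.1, 79.2 and 23.6 CPM in CNS. LK mice had 8.99, 22.7, 11.3 and 2.01 CPM in BM against 9.80, 56.0, 18.3 and 9.45 CPM in CNS. The smallest ratio, 1.09, was that of LK mouse 1, and the largest, 6.53, that of LMPP mouse 4.

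The 2 genes are near-identical copies. Of the 50-base stretches of Hspa1a, 58.8% also occur in Hspa1b, and 62.3% of those of Hspa1b occur in Hspa1a, so reads could be split between them and the values of one gene alone are uncertain. Their sum does not depend on that split, though reads that match both may also have been dropped. The sum had a mean of 30.6 ± 21.6 CPM in BM and 97.7 ± 77.8 CPM in CNS (SD, n = 12), and was higher in CNS in 12 of 12 mice by 1.28 to 7.65 times. Shared stretches also reached 47.5% for Hsp90aa1, 42.1% for Hspd1, 39.4% for Hspa8, 22.8% for Hspe1 and 20.6% for Dnaja1, mostly with pseudogenes, and 3.44% or less for Hsp90ab1, Dnajb1 and Hsph1.

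The paired test, edgeR's quasi-likelihood test with the mouse as a block on 16213 genes above background, gave Hspa1b a log2 fold change of 1.65 ± 0.17 (SE, edgeR adjusted p = 0.000804). Hspa1a had 1.46 ± 0.19 (edgeR adjusted p = 0.0031) and Hsph1 0.45 ± 0.10 (edgeR adjusted p = 0.0286). Thus 3 of the 10 chaperones were called higher, against 1.6% of all genes tested, and none was called lower. Because the genes were chosen with earlier results of these data known, such shares are a description and no test of the set. With the block on all 40332 genes, Hspa1b (1.64 ± 0.27, edgeR adjusted p = 0.0135) and Hspa1a (1.45 ± 0.27, edgeR adjusted p = 0.0256) were called, 2 of 10 against 0.0719% of genes.

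The planned test without the mouse gave the same direction and no call. Hspa1b had 1.76 ± 0.43 (edgeR adjusted p = 0.243) and Hspa1a 1.67 ± 0.40 (edgeR adjusted p = 0.235), and 0 of 10 chaperones were called, against 0% of 40332 genes, of which 794 had an unadjusted p under 0.05. DESeq2 without the mouse called 79 genes, among them Hspa1b (DESeq2 adjusted p = 0.0168) and Hspa1a (DESeq2 adjusted p = 0.0292). Without the library CNS HSC 2, the unpaired edgeR test called both as well (edgeR adjusted p = 0.0472 for each).

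**Figure D2:**
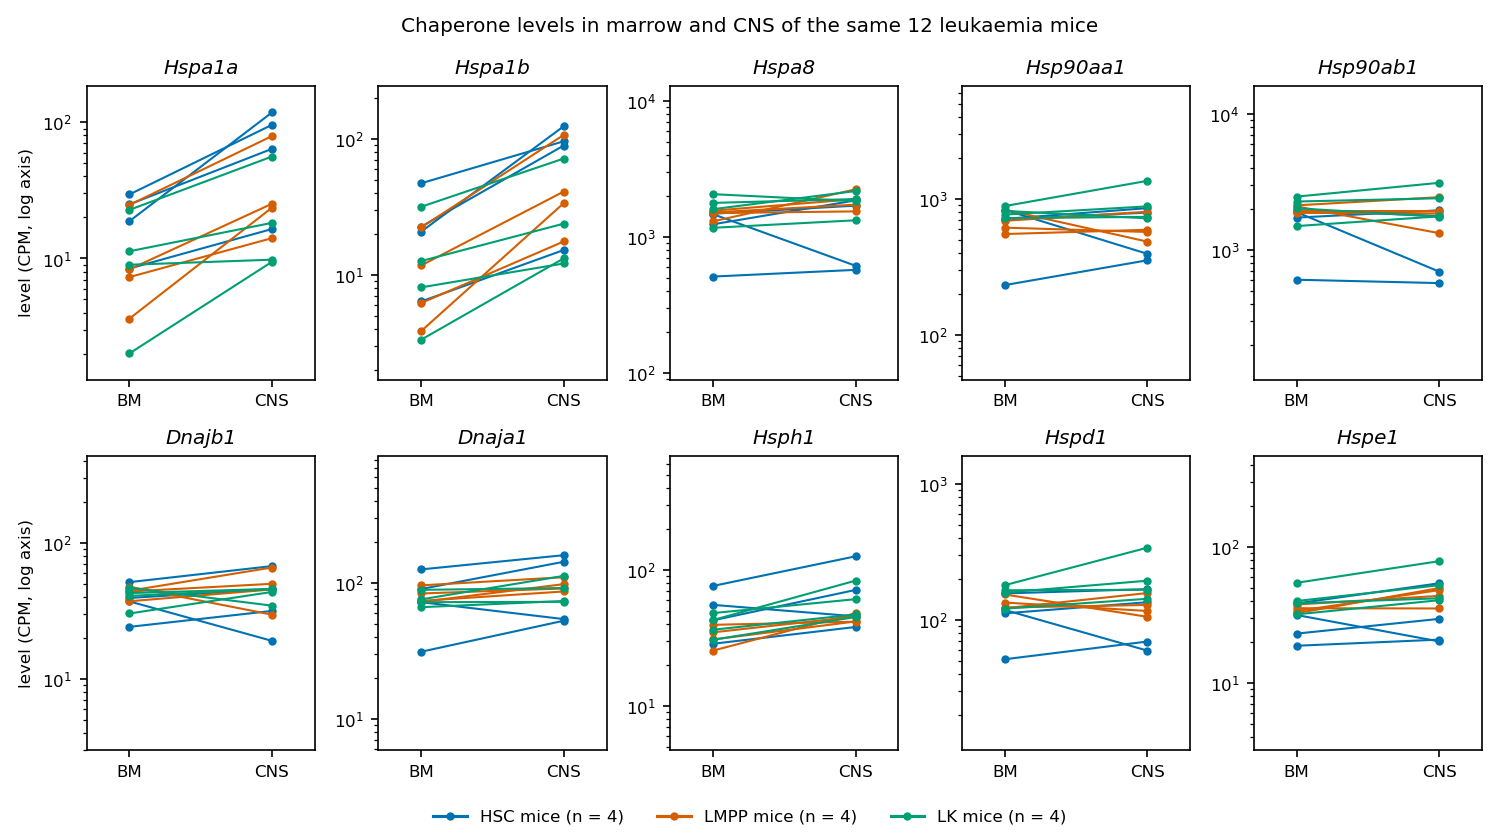
Level in CPM (log axis, same number of decades in each panel) in BM and CNS of each leukaemia mouse, 1 line per mouse, coloured by sorted cell type. All 12 lines rise for Hspa1a and Hspa1b and 11 of 12 for Hsph1, while lines for Hsp90ab1 rise in 5 of 12.

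The rise of the pair was also present where the uniform background was subtracted, a setting chosen after seeing the data. The sum of Hspa1a and Hspa1b then went from a mean of 27.3 to 93.4 CPM and stayed higher in CNS in 12 of 12 mice. The mouse nearest to background was HSC mouse 2: CNS HSC 2 held Hspa1b at 2.06 times and Hspa1a at 2.10 times the background for their length, and the background share of counts in that mouse was 8.62% in BM and 23.7% in CNS. In that mouse Hspa1b less background was 4.33 CPM in BM and 7.85 CPM in CNS. Over the 24 leukaemia libraries, Hspa1a was above background in 22 and Hspa1b in 21.

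Without the mice of CNS HSC 1 and BM LMPP 3, the paired test gave Hspa1b 1.55 (edgeR adjusted p = 0.0125) and Hspa1a 1.37 (edgeR adjusted p = 0.0287), and Hsph1 was no longer called (0.38, edgeR adjusted p = 0.12). With any 1 of the 12 mice left out, the pair stayed called. Hsph1 lost its call without HSC mouse 1 or 3, LMPP mouse 3, or LK mouse 2, 3 or 4 (edgeR adjusted p up to 0.0718), so its call rests on single mice. Without HSC mouse 2, Dnaja1 (edgeR adjusted p = 0.0336) and Hspe1 (edgeR adjusted p = 0.0412) were called as well.

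Hsph1, the HSP110 partner of HSP70, had the third largest difference. Its BM level was 42.5, 55.3, 76.1 and 28.6 CPM in HSC mice 1 to 4 and its CNS level 71.2, 45.6, 125.6 and 38.0 CPM. In LMPP mice the levels were 39.4, 34.7, 25.5 and 30.8 CPM in BM and 41.6, 45.4, 48.0 and 41.8 CPM in CNS, so that all 4 CNS LMPP libraries lay above all 4 BM LMPP libraries. In LK mice they were 42.8, 36.3, 48.1 and 30.6 CPM in BM and 83.3, 47.0, 60.9 and 45.0 CPM in CNS. HSC mouse 2 was the exception, with a lower level in CNS. With the background subtracted, Hsph1 was higher in CNS in 10 of 12 mice.

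The other 7 chaperones did not pass the paired test. Among HSP70 partners, the J protein Dnaja1 had 0.24 ± 0.10 (interval 0.04 to 0.45, edgeR adjusted p = 0.269), higher in 11 of 12 mice, from 78.8 ± 21.9 CPM in BM to 95.2 ± 32.3 CPM in CNS. Dnajb1, the J protein best known from heat shock, had 0.05 ± 0.13 with a 95% interval from -0.23 to 0.33, which leaves out the size seen for the inducible pair. It ranged from 24.1 to 51.4 CPM in BM with a median of 41.7, and from 19.0 to 67.4 CPM in CNS with a median of 45.5. The constitutive Hspa8 had 0.11 ± 0.15 (interval -0.22 to 0.44), with 513 to 2065 CPM in BM and 574 to 2240 CPM in CNS, and was higher in 10 of 12 mice.

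For the HSP90 genes, Hsp90aa1 had -0.01 ± 0.15 (interval -0.32 to 0.30) and Hsp90ab1 -0.14 ± 0.15 (interval -0.47 to 0.18). Hsp90ab1, the more abundant, averaged 1866 ± 468 CPM in BM and 1793 ± 705 CPM in CNS, and was higher in CNS in 5 of 12 mice. For the mitochondrial pair, Hspd1 had 0.07 ± 0.12 (interval -0.20 to 0.33) and Hspe1 0.24 ± 0.09 (interval 0.04 to 0.44, edgeR adjusted p = 0.267). Hspe1 was higher in 10 of 12 mice and Hspd1 in 9 of 12, although the 2 genes share their upstream region.

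**Figure D3:**
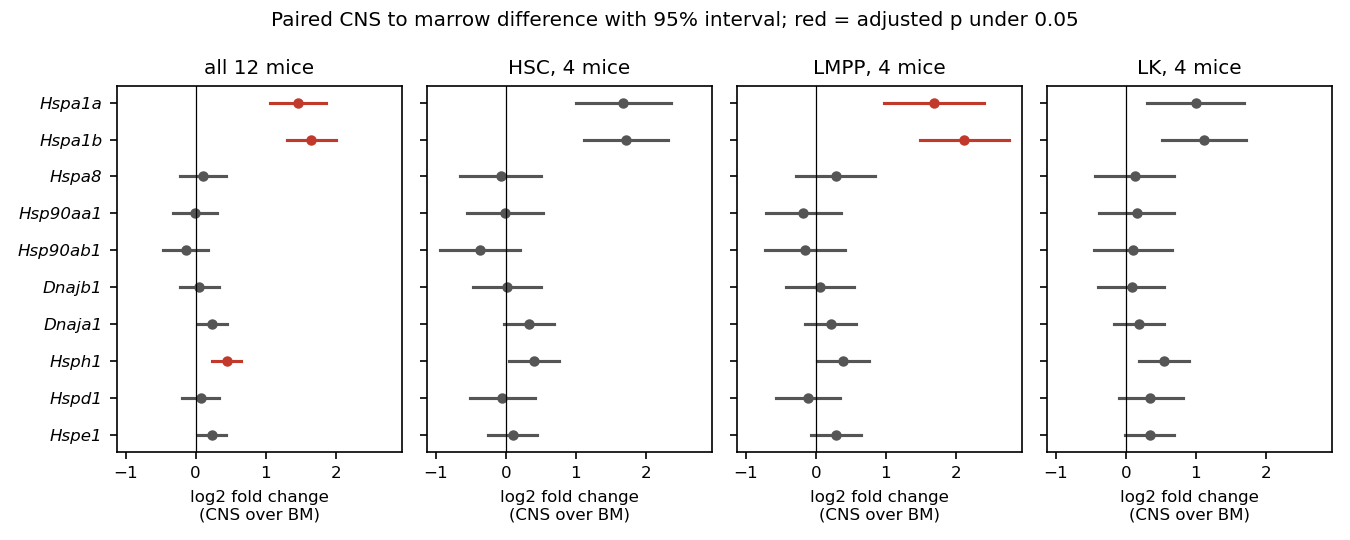
Log2 fold change of CNS over BM (x axis) with its 95% interval for each chaperone, from the paired edgeR test on genes above background, over all 12 mice and within each cell type. Intervals of Hspa1a and Hspa1b lie above 0 in all 4 panels; red marks an adjusted p under 0.05, reached by 3 genes over all mice and by 2 in LMPP.

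Within cell types, the inducible pair had the largest difference of the 10 chaperones each time. In LMPP, Hspa1b had 2.12 ± 0.30 (edgeR adjusted p = 0.0126) and Hspa1a 1.69 ± 0.33 (edgeR adjusted p = 0.0237) in the paired test of genes above background, so 2 of 10 were called against 1.54% of genes. These LMPP calls were lost for both genes without LMPP mouse 1 or 3 (edgeR adjusted p up to 0.0907 for Hspa1b), and for Hspa1a without LMPP mouse 4. In HSC, Hspa1b had 1.72 ± 0.28 and Hspa1a 1.68 ± 0.32 (edgeR adjusted p = 0.316 and 0.457), and 0 of 10 were called against 0% of genes. In LK, Hspa1b had 1.11 ± 0.28 and Hspa1a 1.00 ± 0.33 (edgeR adjusted p = 0.872 and 1), and 0 of 10 were called against 0.00617% of genes. Hsph1 lay between 0.39 and 0.55 in the 3 cell types. The paired test with all genes, and the unpaired test, called 0 of 10 within each cell type.

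Whether the niche difference depends on cell type was tested directly. It was called for 0 of 10 chaperones, against 0% of 40332 genes, of which 207 had an unadjusted p under 0.05; DESeq2 and the paired test also called 0 genes. For Hspa1b the rise in LMPP exceeded that in LK by 1.01 and that in HSC exceeded LK by 0.61 in the paired test of genes above background (unadjusted p = 0.0734). The most negative differences were -0.47 for Hspd1 in LMPP against LK and -0.47 for Hsp90ab1 in HSC against LK. A difference between cell types was therefore not shown, and a p above the threshold does not show that the cell types moved alike.

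The differences of the 12 mice split the 10 chaperones into 2 sets, as a description over mice that share libraries and scale. Hspa1a and Hspa1b correlated with each other at r = 0.92, but reads could be split between these near-identical copies, so they are not separately measured genes. Among the other 8 genes, r ran from 0.63 to 0.94 with a median of 0.785 over 28 gene pairs, with Hspa8 and Hspe1 at 0.94. Between Hspa1a or Hspa1b and the other 8, r ran from -0.07 to 0.37 with a median of 0.255 over 16 pairs. In HSC mouse 2, 0 of the other 8 were higher in CNS (median -0.95 on the log2 scale), while the sum of the inducible pair was higher by 1.05. The background share of counts in that mouse was 8.62% in BM and 23.7% in CNS. Neither gene of the pair was above background in CNS HSC 2, and with background subtracted the sum was higher by 0.64. In LK mouse 1, 8 of the other 8 were higher (median 0.54). The pair was higher there by 0.34, its smallest step in any mouse.

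**Figure D4:**
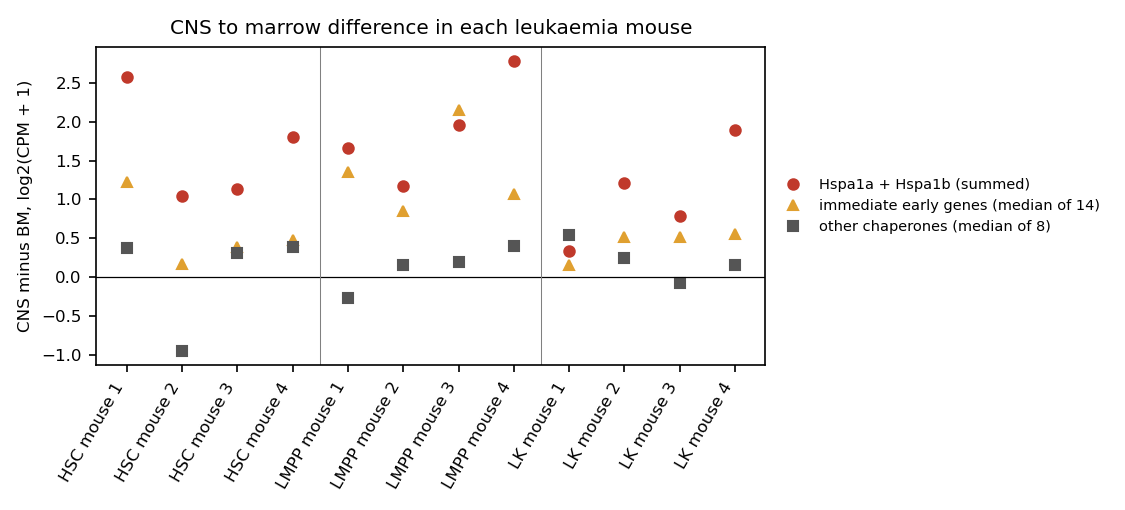
Difference of CNS minus BM in log2(CPM + 1) (y axis) in each of the 12 leukaemia mice (x axis) for the sum of Hspa1a and Hspa1b, the median of 14 immediate early genes and the median of the other 8 chaperones. The pair lies between 0.34 and 2.78 and above 0 in all mice. The other chaperones lie from -0.95 (HSC mouse 2) to 0.54 (LK mouse 1), and in LK mouse 1 they lie above the pair.

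Among 16203 genes ranked over the 12 mice, those whose difference was most like the mean of the 10 chaperones were Def6 (r = 0.98), Tcf25, Ppp6r1, Brpf1 and Chchd2 (r = 0.97 each). None of these 5 moved far on average, with mean differences from -0.20 to 0.11. Most like Hspa1b were Stx7 (r = 0.85), Sh2d3c (0.84) and Vhl (0.83), with mean differences from -0.08 to 0.22. These are ranks out of many genes over 12 points, and carry no test.

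Over all 12 mice, other genes of the heat shock and folding network gave no call in the paired test of genes above background, in which 1.6% of all genes were called higher. Of 4 regulators, the main heat shock factor Hsf1 had a level of 43.0 ± 6.40 CPM in BM against 38.4 ± 6.41 CPM in CNS (-0.18 ± 0.08, edgeR adjusted p = 0.38, higher in 2 of 12 mice). Its binding protein Hsbp1 had 0.23 ± 0.11. Of 16 other known heat shock factor targets, 12 were tested, 6 of them higher, with a median of -0.01 against 0 over all genes; Bag3, an exchange factor for HSP70, went from 3.96 ± 4.35 to 4.63 ± 3.22 CPM (0.57 ± 0.34, edgeR adjusted p = 0.584). Of these targets 0 of 12 were called.

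Among 5 tested of 7 other HSP70 and HSP110 genes, Hspa2 had -0.26 ± 0.11 (edgeR adjusted p = 0.308) and Hspa14 0.09 ± 0.12. Among 12 other J proteins, Dnajb14, of the endoplasmic reticulum membrane, went from 35.8 ± 9.44 to 48.8 ± 13.7 CPM (0.40 ± 0.10, edgeR adjusted p = 0.0513), the closest to a call in that list, and Dnajb2 had 0.41 ± 0.22. Within LMPP the same test called Dnajb14 (0.80, edgeR adjusted p = 0.0364), 1 of 12. The 14 exchange factors and HSP90 cochaperones had a median of -0.01, with Hspbp1 at -0.19 ± 0.12 and Fkbp5 at -0.14 ± 0.10. The 8 subunits of the cytosolic chaperonin TRiC had a median of 0, with Cct8 at 0.11 ± 0.12 and Cct4 at 0.07 ± 0.11. A further 8 mitochondrial genes had a median of -0.03, with Dnaja3 at 0.12 ± 0.10 and Lonp1 at -0.13 ± 0.11. None of these genes was called. Of 18 chaperones and stress genes of the endoplasmic reticulum, 16 were higher in CNS with a median of 0.16 and 0 called, led by Sdf2l1 (0.33 ± 0.14) and Creld2 (0.35 ± 0.15). Over all genes tested 50.7% were higher.

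**Figure D5:**
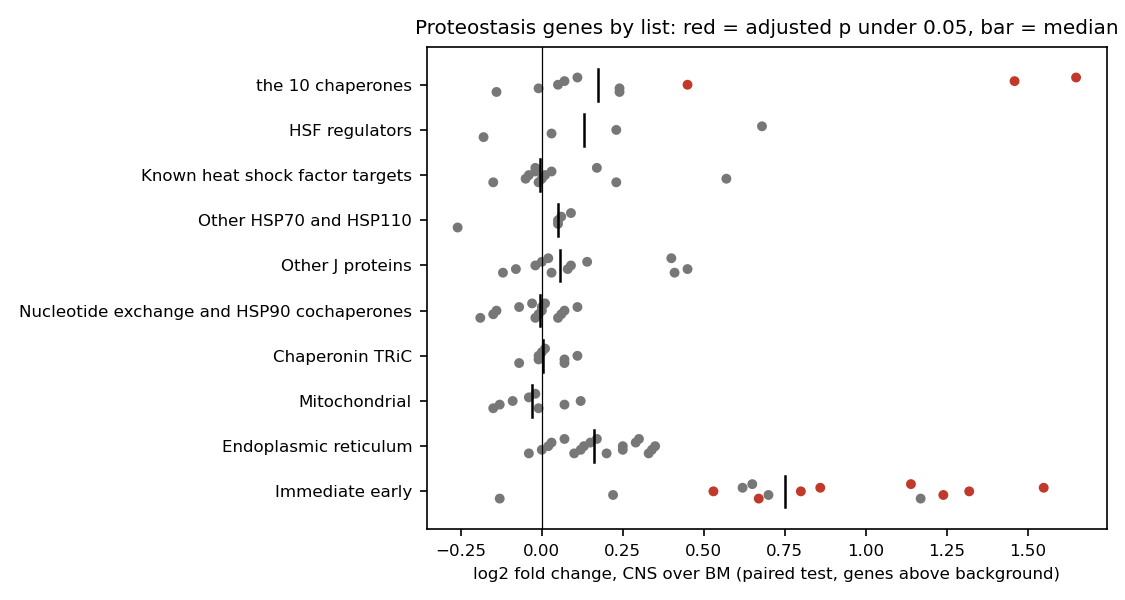
Log2 fold change of CNS over BM (x axis) of every tested gene in the 10 lists (rows), from the paired edgeR test on genes above background; bars are list medians and red marks an adjusted p under 0.05. Red points occur in the chaperones (3 genes) and in the immediate early genes (8 of 14).

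Immediate early genes, which are switched on within minutes by stress and growth signals, were higher in CNS beside the inducible pair. In the same test, 8 of 14 were called higher, against 1.6% of all genes, with a median of 0.75. This list too was chosen with earlier results of these data known, so the share is a description. With the block on all 40332 genes 0 of 14 were called (median 0.74), and 0 of 14 in the unpaired edgeR test (median 0.85). In the test of genes above background, Ier5, a known partner of Hsf1, had means of 26.2 ± 17.9 CPM in BM and 68.6 ± 53.9 CPM in CNS (1.14 ± 0.14, higher in 12 of 12 mice, edgeR adjusted p = 0.0031), Jun had 1.24 ± 0.18, Dusp1 1.32 ± 0.23, Fos 1.55 ± 0.29, Junb 0.86 ± 0.12, Btg2 0.80 ± 0.17, Jund 0.67 ± 0.15 and Zfp36 0.53 ± 0.11. Their median difference was above 0 in each of the 12 mice, from 0.16 in LK mouse 1 to 2.15 in LMPP mouse 3, whose BM library had the lowest total. The part of such an early response in the rise of Hspa1a and Hspa1b was not tested.

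Markers of other cells that a sort could hold moved with niche too. Summed microglia markers (11 genes, all detected) were higher in CNS in 7 of 12 mice and border macrophage markers (7 genes) in 9 of 12, while mature neutrophil markers (7 genes) were lower in CNS in 11 of 12. Microglia markers ran from 66.4 to 235 CPM in BM and from 51.8 to 2165 CPM in CNS, and neutrophil markers from 8.78 to 11441 CPM in BM and from 9.38 to 1640.5 CPM in CNS. In the paired test of genes above background, 1 of 10 tested microglia markers and 2 of 6 border macrophage markers were called higher and 1 of 7 neutrophil markers lower. Of the 4 neuron markers 0, and of the 4 astrocyte markers 1, were above background in enough libraries to be tested. Summed oligodendrocyte markers (3 of 4 tested, 0 called) were higher in CNS in 10 of 12 mice, from 59.5 to 104.5 CPM in BM and from 70.6 to 143 CPM in CNS. Astrocyte markers were higher in 9 of 12 mice, erythroid markers in 7 of 12 and endothelial markers in 3 of 12, and in HSC mouse 4 the erythroid sum was 93.8 CPM in BM against 1044 CPM in CNS. The progenitor markers Ptprc, Kit, Cd34, Flt3 and Ly6a summed to 343 to 1741 CPM in BM and 389 to 1750.5 CPM in CNS, and all 5 were detected in every group. The part of RNA from these other cells in the chaperone values was not tested.

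The second comparison was between sorted cell types. Within leukaemia, none of the 10 chaperones was called between HSC, LMPP and LK, in BM (0 of 10, against 0.0149% of genes) or in CNS (0 of 10, against 0.062%). In CNS the difference of HSC from LK was -1.46 for Hspd1 (edgeR adjusted p = 0.37), -1.31 for Hsp90ab1 (edgeR adjusted p = 0.458) and -1.26 for Hspe1 (edgeR adjusted p = 0.382), and of the other sign for Hspa1a (1.38, edgeR adjusted p = 0.444) and Hspa1b (1.17, edgeR adjusted p = 0.514). Without CNS HSC 1, Hspd1 and Hspe1 were called (edgeR adjusted p = 0.0342 and 0.0164), and DESeq2 called Hspd1 (DESeq2 adjusted p = 0.0445). DESeq2 called 5571 of 40332 genes in CNS, so its call of Hspd1 is no result particular to chaperones. The share of all genes called without CNS HSC 1 is not given here, so the calls of that fit cannot be set against it. On genes above background, 2322 of 16213 genes were called but none of the chaperones (Hspd1, edgeR adjusted p = 0.0613). CNS HSC libraries held Hspd1 at 59.4 to 168 CPM, and CNS LK libraries at 143 to 339 CPM, so the groups overlapped.

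The 3 control cell types were far apart. In control BM, Hspd1 was at 40.7 to 44.2 CPM in HSC and 34.8 to 88.0 CPM in LMPP, against 292 to 358 CPM in LK. Hspe1 was at 12.5 to 17.96, 10.9 to 27.7 and 72.6 to 95.7 CPM in the same order. Hspa8 was at 208 to 294, 241 to 673 and 1384 to 1808 CPM, Hsp90aa1 at 135 to 191, 134 to 294 and 983 to 1333 CPM, and Hsp90ab1 at 364 to 452, 347 to 1072 and 2176 to 3124 CPM. For these 5 genes LK did not overlap with either other type, whereas HSC and LMPP overlapped with each other.

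In the test of control cell types, 9 of 10 chaperones were called, against 41.8% of 41609 genes. The difference of HSC from LK was -4.14 for Hspd1 (edgeR adjusted p = 6.47e-13), -3.89 for Hsp90aa1 (edgeR adjusted p = 2.48e-11) and -2.37 for Dnaja1 (edgeR adjusted p = 1.43e-09). Hspa1b had -0.52 (edgeR adjusted p = 0.0425) and Hspa1a -0.32 (edgeR adjusted p = 0.16). On genes above background, 71.6% of 11566 genes were called. There the HSC to LK difference of every tested chaperone moved in the positive direction by a similar step. Hspd1 went from -4.14 to -2.53, Hsp90aa1 from -3.89 to -2.26 and Dnaja1 from -2.37 to -0.76. The sizes thus depend on which genes were tested and scaled. Dnajb1, Dnaja1 and Hsph1 passed that filter only through the 4 LK libraries and LMPP 4, so their calls there are no support for a lower level in HSC. Hspa1a took a similar step, from -0.32 to 1.22, and so changed sign (edgeR adjusted p = 0.0205 on genes above background). It passed that filter only through HSC 4 and LK 1, 2 and 4. Control HSC 1, 2 and 3 held Hspa1a at 2.37, 2.15 and 2.32 times the background for its length and were not above background. Its call there is therefore no support for a higher level in HSC. Hspa1b did not pass that filter. The call of Hspa1b was lost without control HSC 3 or 4, LMPP 1 or 3, or LK 2 (edgeR adjusted p up to 0.469), and Hspa1a was called without control LMPP 2 (edgeR adjusted p = 0.0463) or LK 3 (edgeR adjusted p = 0.031). In the paired test of genes above background, 5 of 5 tested chaperones were called without control mouse 4, since fewer genes passed the filter. With all control mice that test called 8011 of 11566 genes, so the count is no result particular to chaperones.

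Background limits these control values, since its median share of counts was 23.9% for HSC, 21.8% for LMPP and 9.69% for LK. Hspa1a was above background in 4 and Hspa1b in 2 of 12 control libraries, and control HSC libraries held Hspa1b at 1.87 to 2.35 times the background for its length. Dnajb1, Dnaja1 and Hsph1 were each above background in 5 of 12. In control HSC these 3 genes stood at 2.01 to 2.74 times the background, against 10.9 to 32.4 times in control LK. The size of their differences therefore holds background; Hspa8, Hsp90aa1, Hsp90ab1 and Hspd1 were above background in 12 of 12 and Hspe1 in 10 of 12.

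The third comparison set leukaemia BM against control BM within each cell type. Leukaemia HSC and LMPP held more of the constitutive chaperones than the controls. Hspa8 was at 1241, 1472, 1483 and 513 CPM in leukaemia BM HSC 1 to 4, against 208 to 294 CPM in control HSC, and at 1303 to 1561 CPM in leukaemia BM LMPP, against 241 to 673 CPM in control LMPP. The groups did not overlap in either type. In LK, Hspa8 was at 1169 to 2065 CPM in leukaemia and 1384 to 1808 CPM in controls, and the groups overlapped.

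In HSC 10 of 10 chaperones were called higher, against 20.3% of 43483 genes, and in LMPP 9 of 10, against 26% (Hspa1a, edgeR adjusted p = 0.0547). In HSC the calls of Hspa1a (1.23, edgeR adjusted p = 0.0462), Hspa1b (1.98, edgeR adjusted p = 0.0021) and Hsph1 (1.51, edgeR adjusted p = 0.00184) were lost with DESeq2 (0.35, 1.02 and 0.47), and that of Hspa1b also without BM HSC 3 (1.28, edgeR adjusted p = 0.0619). The call of Hspa1a was lost in 13 of 24 fits that left out a library, among them BM HSC 1 or 3 and control HSC 1, 2 or 3. In LMPP the call of Hspa1b (1.40, edgeR adjusted p = 0.0178) was lost without BM LMPP 1 or 3 or control LK 3 (edgeR adjusted p up to 0.109), with DESeq2's size factors (0.11, edgeR adjusted p = 0.864) and with DESeq2 (0.16, DESeq2 adjusted p = 0.797). On genes above background 7 of 10 were called higher in HSC, against 28% of 15752 genes, and 6 of 10 in LMPP, against 33.3%. There Hspa8 had 2.03 ± 0.29 in HSC (edgeR adjusted p = 1.37e-05) and 1.67 ± 0.29 in LMPP (edgeR adjusted p = 4.29e-05), Hsp90ab1 1.78 ± 0.31 and 1.52 ± 0.31, and Hspd1 1.24 ± 0.24 and 1.01 ± 0.24. Hsph1 (0.26 and -0.36), Hspa1a (0.18 and -0.62) and Hspa1b (0.81 and -0.24) were called in neither type. Dnaja1 had 0.74 ± 0.24 in HSC (edgeR adjusted p = 0.0169) and 0.40 ± 0.24 in LMPP (edgeR adjusted p = 0.147). Dnajb1 and Dnaja1 were above background in 0 of 4 control HSC libraries and 1 of 4 control LMPP libraries. They passed that filter through leukaemia libraries, control LK and control LMPP 4. The counts of 7 and 6 include Dnajb1, and the count of 7 also Dnaja1. These calls are no support for a higher level in leukaemia.

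In LK 0 of 10 were called, against 3.52% of genes. On genes above background 3 of 10 were called lower in leukaemia, against 6.75%: Hsph1 fell from 91.7 ± 12.3 to 39.5 ± 7.60 CPM (SD, n = 4; -1.24 ± 0.20, edgeR adjusted p = 9.88e-05), Hspd1 from 329 ± 32.4 to 156 ± 25.1 CPM (-1.10 ± 0.24, edgeR adjusted p = 0.00208) and Hspe1 from 80.4 ± 10.5 to 41.3 ± 9.53 CPM (-0.98 ± 0.21, edgeR adjusted p = 0.00227). Leukaemia and control LK libraries did not overlap for these 3 genes. Hsp90aa1 (-0.49 ± 0.27) and Hspa8 (0.08 ± 0.28) were not called. In the test of all genes the median gene shifted by -0.12 for HSC, -1.10 for LMPP and -0.25 for LK. With scaling by DESeq2's size factors it shifted by -0.91, -2.46 and -0.49, against -0.03, 0.02 and -0.04 on genes above background. These medians do not account for the larger chaperone differences in the test of all genes. Hspa8 in HSC had 3.32 there and 2.03 on genes above background, and in LMPP 3.16 and 1.67. Sizes and calls of the test of all genes thus depend on which genes were tested and scaled, also the counts called in HSC and LMPP.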

How the data were processed

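Sorted cells of 36 libraries were sequenced after stranded total RNA preparation from small inputs, per the labels' protocols. The authors deposited 2 tables of whole-number counts per gene; they are named normalised, but totals differ between libraries, so they were taken as counts. Per the submitters' processing notes DESeq2 and the build GRCm39 were used; the sources used here name no aligner, counting tool or strand setting. Symbols (52081 identifiers) and exon lengths (52133) came from an annotation of GRCm38. Comparisons used edgeR 4.0.16 (glmQLFit, glmQLFTest) in R 4.3.3, TMM scaling, a minimum of 10 counts in 4 or more libraries, and Benjamini-Hochberg adjustment at 0.05; DESeq2 1.42.0 was an alternative. The script was tested on simulated data. The paired test adds the mouse as a block; identifiers in the labels that share a stem and differ in the tissue or cell type ending pair the libraries. As a check, deviations of paired libraries had a median correlation of 0.27 (-0.30 to 0.70, 12 leukaemia pairs) and 0.04 (-0.39 to 0.14, 12 control pairs). The background filter was in the plan, with 1791 sensory receptor genes; the level scale and the tests without named mice were added after seeing the data. Levels across the 2 tables share 1 scale. All 10 chaperones are named, with list genes past the threshold in the paired test (up to 12) or the 2 of smallest p in a list with none; 1 such gene is not reported here. The members and lists were chosen with earlier results of these data known.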

Additional observations from a re-analysis of the deposited data

Results flagged for a closer look

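Of 90 sets of 4 libraries examined (10 chaperones in 9 groups), 4 had a library far from the other 3 by Dixon's ratio at the 95% level. Chance alone flags about 1 in 20, and 4 of 90 is no more than that. Hspa1b was at 15.2 CPM in CNS HSC 2, against 89.1 to 123 CPM in the other CNS HSC libraries. In BM HSC 4, Hspa8 was at 513 CPM (others 1241 to 1483), Hsp90aa1 at 233 CPM (others 707 to 832) and Hsp90ab1 at 603 CPM (others 1724 to 1953). BM HSC 4 also had the highest background share of the leukaemia libraries, 25.7%, and CNS HSC 2 the next, 23.7%; the part of background in these values was not tested.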

How the results depend on the processing

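Depth over background limits the control HSC and LMPP values and the values of CNS HSC 2, and 4 mice per cell type limit what can be told within a type. For CNS against BM over all cell types, the principal count of 0 called chaperones became 2 with DESeq2, with no low-count filter, with the replicate block, and with the block on genes above background after the mice of CNS HSC 1 and BM LMPP 3 were left out, and 3 with the replicate block on genes above background; it ranged from 0 to 2 with 1 library left out and from 2 to 5 in the latter test with 1 mouse left out. Within LMPP the count was 2 with the block on genes above background, from 0 to 2 with a mouse left out. Between cell types in CNS it was 1 with DESeq2, from 0 to 2 with a library left out, and 2 without CNS HSC 1 and BM LMPP 3. In controls it was 5 to 8 with the block and a mouse left out, where fewer genes passed the background filter; otherwise the block moved no count by over 1.5 times. For leukaemia LK against control LK it was 3 with DESeq2's size factors, 3 with DESeq2 and 3 on genes above background. In leukaemia LMPP against control LMPP, Hspa1b turned to -0.24 on genes above background, and Hsph1 to -0.07 with DESeq2's size factors, to -0.07 with DESeq2 and to -0.36 on genes above background; the cause was not tested. With background subtracted, counts of mice with a higher CNS level fell from 11 to 10 for Dnaja1 and Hsph1 and were the same for the other 8 chaperones.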
